A study of Mus musculus with 8 samples.

Results

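The 8 genes described here mark group 3 innate lymphoid cells (ILC3) and lymphoid tissue inducer (LTi) cells, and were taken by name: Il23r, Il22, Ahr, Tnfsf11, Lta, Ltb, Ccr6 and Cxcr6. All 8 were found among the 53647 gene identifiers of the count files. RNA was sequenced from mouse bone marrow cells sorted as negative for lineage markers and positive for CD127, the interleukin 7 receptor alpha chain. There were 4 libraries from knockout (KO) marrow, whose genotype label is spelled Tref1 -/-, and 4 from wild-type (WT) marrow, labelled Trerf1 +/+. Age, sex, strain and the deleted exons are not given in the sources used here, and nothing in the labels tells whether libraries of a group came from different animals. All p-values therefore refer to the spread among libraries, which may be technical. The only comparison in the labels is KO against WT.

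ILC3 and LTi cells are innate lymphocytes found mostly at mucosal surfaces and in lymphoid tissue. They sense interleukin 23 through the receptor encoded by Il23r, and answer with interleukin 22 and 17, which act on epithelia. LTi cells carry lymphotoxin and RANK ligand and seed lymph nodes in the embryo. In bone marrow, cells with CD127 and no lineage markers are mostly lymphoid progenitors, among them precursors of innate lymphoid cells. Several genes of the set are also used by other cells: Ltb and Ccr6 by B cells, Lta and Cxcr6 by T cells, and Ahr by many cell types. In bulk RNA, fewer cells of a type and less RNA per cell cannot be told apart.

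Promoter sequences are given for the 3 members whose levels per length were highest, Ltb, Cxcr6 and Ccr6, and for Il23r, the receptor that defines the ILC3 response to interleukin 23. Each line holds the 250 bases before the start of the gene in RefSeq (build GRCm38.p6), written 5′ to 3′ on the strand of the gene. Capitals mark matches, on either strand, to AGGTCA, a core bound by nuclear receptors, or to 1 form of the NF-kB site, whose letters are those in capitals in Ltb and their reverse complement. Of the 32851 promoter entries of that length, 14.02% hold AGGTCA and 0.140% hold that NF-kB site. The window of Ltb is chr17:35194257-35194506 (plus strand), that of Cxcr6 chr9:123806227-123806476 (plus), that of Ccr6, at the more upstream of its 2 starts, chr17:8235793-8236042 (plus), and that of Il23r chr6:67491856-67492105 (minus).
Ltb: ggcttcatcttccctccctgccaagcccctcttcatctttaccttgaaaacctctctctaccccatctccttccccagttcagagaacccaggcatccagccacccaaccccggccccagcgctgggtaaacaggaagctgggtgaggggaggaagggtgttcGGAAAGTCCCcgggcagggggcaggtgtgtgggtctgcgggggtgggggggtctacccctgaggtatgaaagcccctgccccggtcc
Cxcr6: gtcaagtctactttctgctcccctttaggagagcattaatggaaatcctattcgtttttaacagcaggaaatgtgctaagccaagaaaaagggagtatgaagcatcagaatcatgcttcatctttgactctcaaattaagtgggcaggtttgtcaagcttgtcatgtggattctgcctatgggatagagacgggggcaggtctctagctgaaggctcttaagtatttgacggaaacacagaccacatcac
Ccr6: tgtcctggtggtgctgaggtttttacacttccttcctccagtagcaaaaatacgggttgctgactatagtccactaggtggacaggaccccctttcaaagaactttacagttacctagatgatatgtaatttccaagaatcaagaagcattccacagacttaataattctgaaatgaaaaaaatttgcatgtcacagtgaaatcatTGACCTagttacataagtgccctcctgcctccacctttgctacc
Il23r: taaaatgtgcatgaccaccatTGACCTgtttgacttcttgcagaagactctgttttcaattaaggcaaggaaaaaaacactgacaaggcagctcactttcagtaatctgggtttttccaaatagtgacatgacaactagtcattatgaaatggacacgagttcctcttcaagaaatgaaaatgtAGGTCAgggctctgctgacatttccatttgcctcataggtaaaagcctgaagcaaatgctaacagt

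The NF-kB match of Ltb lies 78 to 87 bases before the start, on the opposite strand of the gene. Il23r holds AGGTCA on its own strand 61 to 66 bases before the start and on the opposite strand at 224 to 229 bases, and Ccr6 holds it on the opposite strand at 39 to 44 bases. GCGTG, the core bound by the aryl hydrocarbon receptor, is in none of the 8 promoter entries of the 7 members that have one, while 28.2% of all entries hold it on either strand. A match is a run of letters and was not tested for binding. Ltb was 63.2% G and C in this window, against 43.6% in Cxcr6, 41.2% in Ccr6, 39.6% in Il23r and a median of 52.4% over all entries.

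Library depth, labels and gate bear on every value below. Libraries held 31109744 to 73414626 counts, and WT2, WT4 and the library labelled KO4 were the 3 deeper ones. Trerf1, the targeted gene, gave 13.4, 12.8, 12.1 and 22.1 CPM (counts scaled to a common library size with TMM factors) in the libraries labelled KO1 to KO4, against 29.0, 32.1, 27.1 and 22.3 CPM in WT1 to WT4. The library labelled KO4 was thus at the level of WT4, and values without these 2 libraries are given where they turn the direction or move it by over 1.5 times. KO2 stood apart in some stroma and osteoblast markers. Col1a1, a collagen gene, had 646 counts there and 0 to 4 in the other 7 libraries, and Col1a2 had 256 counts against 0 to 14. Sparc had 172 counts in KO2 against 8 to 64, and Bglap, which encodes osteocalcin, 22 against 0 to 2. Other markers of that list were not high in KO2. Runx2 was lowest there, at 393 CPM against 440 to 668 CPM in the other 7 libraries, and Cxcl12 had 4 counts against 4 to 136. The part of stromal or bone-forming cells in the low values of KO2 given below was not tested. Xist, which is transcribed from the inactive X chromosome, was at 443 to 765 CPM before TMM scaling in KO1, KO3, the library labelled KO4, WT1 and WT4, and at 0.0609 to 0.643 CPM in KO2, WT2 and WT3. Il7r, which encodes CD127, was at 354 ± 45.8 CPM in KO and 324 ± 46.8 CPM in WT (SD, n = 4 each). Among the genes listed as ILC3 and LTi markers, Nrp1 was at 64.3 to 88.0 CPM, Ccr6 at 2.84 to 8.87 CPM and Ncr1 at 1.85 to 5.15 CPM over the 8 libraries. Nrp1 was highest in WT4, as was the summed level of the dendritic and monocyte markers given below. Which cells the Nrp1 RNA came from was not tested. Il23r was at 0.390 to 1.07 CPM, while Il22 and Il17a had at most 12 and 4 counts in any library.

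Levels per length, as TPM from the authors' RSEM files, put Ltb far above the rest of the set. The mean over 8 libraries was 176 TPM for Ltb, which is above 93.8% of the genes tested, and 52.1 TPM for Cxcr6, above 79.2% of them. Ccr6 followed at 6.81 TPM, Lta at 3.59 TPM, Tnfsf11 at 2.08 TPM, Ahr at 1.06 TPM, Il23r at 0.326 TPM and Il22 at 0.118 TPM. Neither Ltb and Cxcr6 nor Cxcr6 and Ccr6 overlapped in range over the 8 libraries. Every later pair of neighbours did overlap, although Ccr6 exceeded Lta in 8 of 8 libraries and Il23r exceeded Il22 in 8 of 8. Lta exceeded Tnfsf11 in 7 of 8, Tnfsf11 exceeded Ahr in 6 of 8 and Ahr exceeded Il23r in 7 of 8. With gene counts divided by gene length in place of TPM, Lta came before Ccr6.

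**Figure D1:**
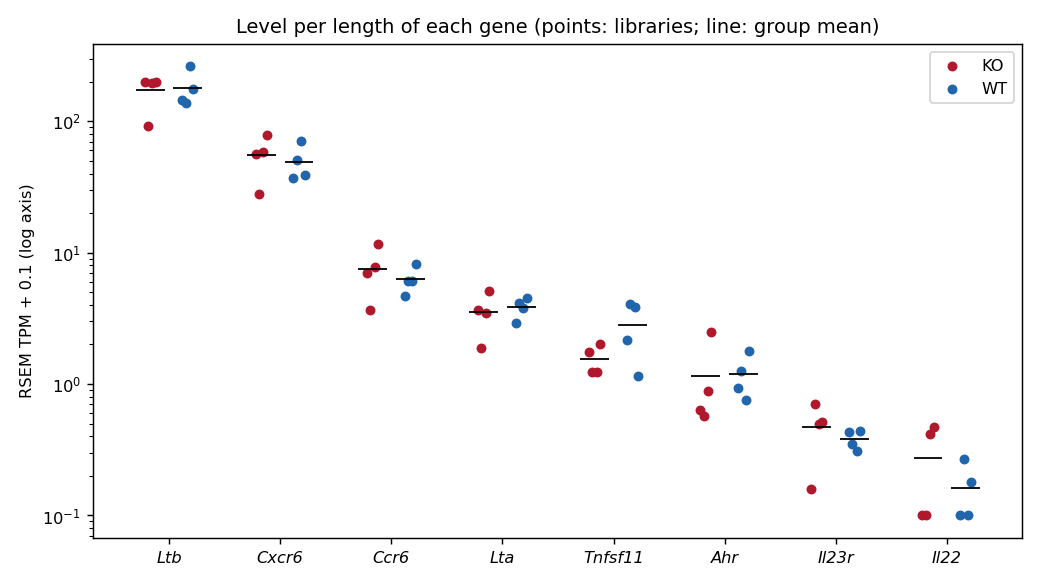
RSEM TPM plus 0.1 on a log axis for the 8 genes in order of level, with KO libraries (red) left of WT libraries (blue) and a line at each group mean. Ltb and Cxcr6 stand above the other 6 genes in every library, and KO and WT points overlap for each gene.

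No member passed the test of KO against WT. Of the 8, 7 passed the count filter, and 0 of these 7 had an adjusted p under 0.05 (edgeR, quasi-likelihood F test, Benjamini-Hochberg over 16352 genes), against 0% of all genes tested. For each of the 7 the adjusted p in edgeR was 0.999. Trerf1, the targeted gene, did not pass either (log2 fold change -0.87 ± 0.20, unadjusted p 0.00151, adjusted p 0.999, edgeR). Not passing this test therefore does not show that a gene is unchanged. At an unadjusted p under 0.05 the count was 0 of 7 against 1.97% of all genes, and DESeq2 and limma-voom also called 0 genes at an adjusted p under 0.05. Libraries of the 2 groups did not overlap for 0 of the 7, against 1.28% of all genes. Estimates were positive for 3 of 7, with a median log2 fold change of -0.02, against 0.01 over all genes. Each log2 fold change of KO over WT is given with its standard error from edgeR, and intervals cover 95%.

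**Figure D2:**
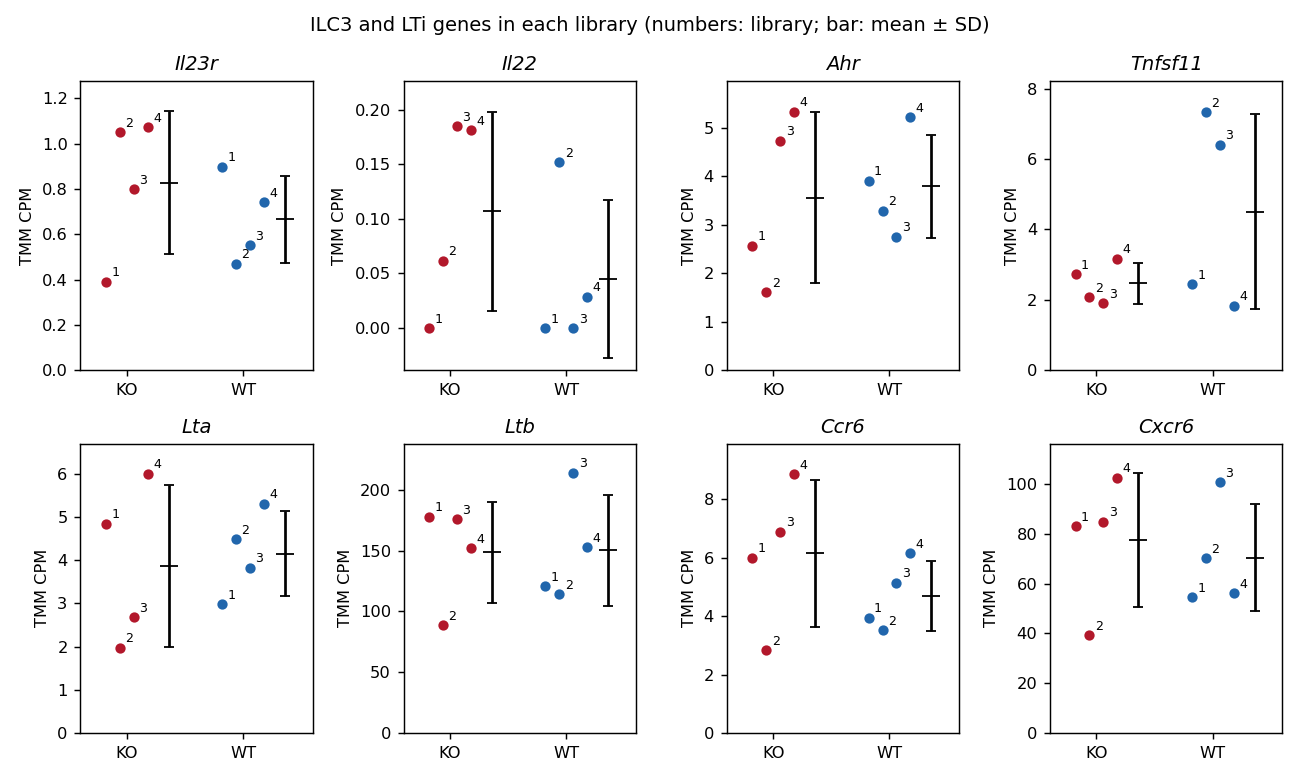
TMM-scaled CPM of each gene in each library (linear axes), KO left of WT, with library numbers beside the points and mean ± SD (n = 4) at the right of each group. KO2 is the lowest of the 8 libraries for Ahr, Lta, Ltb, Ccr6 and Cxcr6, and Tnfsf11 is highest in WT2 and WT3.

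Lta and Ltb encode the chains of lymphotoxin, the signal by which LTi cells act on stromal cells. The surface form is a heteromer of both chains, held to the membrane by lymphotoxin beta. Ltb (ENSMUSG00000024399.6) had 178, 88.6, 176 and 152 CPM in the libraries labelled KO1 to KO4, against 121, 114, 214 and 153 CPM in WT1 to WT4. KO2 was the lowest and WT3 the highest of the 8, and the groups overlapped. The means were 149 ± 41.8 CPM in KO and 150.4 ± 45.8 CPM in WT (SD, n = 4 each), with a log2 fold change of -0.02 ± 0.24 and an interval of -0.55 to 0.52, or 0.683 to 1.43 in fold.

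Lta (ENSMUSG00000024402.6) had 4.85, 1.97, 2.67 and 6.004 CPM in the libraries labelled KO1 to KO4, against 2.99, 4.49, 3.83 and 5.31 CPM in WT1 to WT4. The KO libraries held both the lowest and the highest value. The means were 3.88 ± 1.87 CPM in KO and 4.15 ± 0.986 CPM in WT (SD, n = 4 each). The log2 fold change was -0.10 ± 0.35, with an interval of -0.87 to 0.68. It was -0.25 ± 0.36 without WT4 and the library labelled KO4. Ltb stood 49.1 times above Lta in mean TPM, and the ratio within a library ran from 39.9 to 57.9 in KO and from 34.3 to 71.3 in WT.

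In the coordinates of the count files (taken as GRCm39 from the annotation path in their headers), Ltb spans chromosome 17, 35413415 to 35415296 on the plus strand, and Lta spans 35422141 to 35424327 on the minus strand. Tnf lies between them, and the 3 genes fit in 10.9 kb. Trerf1 is on the same chromosome, 12.0 Mb away from Lta. Tnf, which encodes tumour necrosis factor, had 15.1, 10.5, 10.6 and 13.1 CPM in the libraries labelled KO1 to KO4, against 9.86, 14, 15.4 and 9.72 CPM in WT1 to WT4. Its groups overlapped too, with a log2 fold change of 0.01 ± 0.20.

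Tnfsf11 encodes RANK ligand, which LTi cells use in building lymph nodes and which bone-forming cells use to drive osteoclasts. It had the estimate farthest from 0 among the 7 tested members. The gene (ENSMUSG00000022015.9, chromosome 14, 78514885 to 78545483, minus strand) gave 2.73, 2.07, 1.91 and 3.17 CPM in the libraries labelled KO1 to KO4, against 2.44, 7.33, 6.41 and 1.83 CPM in WT1 to WT4. WT2 and WT3 stood above the other 6 libraries, of which the highest had 3.17 CPM, while WT1 and WT4 lay inside the KO range. The means were 2.47 ± 0.588 CPM in KO and 4.499 ± 2.77 CPM in WT (SD, n = 4 each). The log2 fold change was -0.86 ± 0.43, with an interval of -1.82 to 0.10, an unadjusted p of 0.0735 by edgeR and a two-sided exact permutation p of 0.343, where 0.0286 is the smallest that 4 against 4 can give.

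WT2 and WT3 are the WT libraries without Xist. The log2 fold change of Tnfsf11 was 0.29 ± 0.37 in the 5 libraries that had Xist. In the other 3, of which only KO2 is a KO library, it was -1.75 ± 0.35. The difference between the classes was 2.03 ± 0.56, with an unadjusted p of 0.00555 and an adjusted p of 0.882 by edgeR with an interaction term, a test chosen after the values were seen. Without WT4 and the library labelled KO4 the log2 fold change was -1.27 (adjusted p 0.401, edgeR), and without WT2 it was -0.53. The summed level of 10 stroma and osteoblast markers, cells that also make RANK ligand, was 457 to 539 CPM in KO and 471 to 682 CPM in WT. WT2 and WT3 had 538 and 471 CPM of these, against 484 and 682 CPM in WT1 and WT4. Runx2, a transcription factor of osteoblasts that other cells use too, made up most of that sum, at 467 ± 60.9 CPM in KO and 512 ± 106 CPM in WT. The sum thus mostly follows Runx2 and cannot show the level of stromal cells. Cxcl12 had 136 counts in WT2 and 4 in WT3, against 4 to 48 in the other 6 libraries. Pdgfrb was at 45.2 CPM in WT2 and 27.7 CPM in WT3, against 10.8 to 30.0 CPM in the other 6. The 10 ILC2 markers summed to 222 and 271 CPM in WT2 and WT3, above the 96.5 to 199 CPM of the other 6 libraries. Klrg1, a receptor found on ILC2, was at 6.28 and 10.06 CPM in WT2 and WT3, against 1.83 to 3.07 CPM in the other 6 libraries. The part of stroma or of ILC2 in the level of Tnfsf11 was not tested.

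Ccr6 and Cxcr6 encode chemokine receptors. CCR6 binds CCL20 and marks LTi-like cells, and CXCR6 binds CXCL16 and is found on innate lymphoid precursors and on tissue-resident lymphocytes. Ccr6 (ENSMUSG00000040899.15, chromosome 17, 8454875 to 8475973, plus strand) had 5.996, 2.84, 6.89 and 8.87 CPM in the libraries labelled KO1 to KO4, against 3.94, 3.52, 5.15 and 6.15 CPM in WT1 to WT4. KO2 was the lowest of all, and 2 of the other 3 KO libraries were above every WT library. The means were 6.15 ± 2.51 CPM in KO and 4.69 ± 1.19 CPM in WT (SD, n = 4 each), with a log2 fold change of 0.39 ± 0.33 and an interval of -0.33 to 1.12. Without KO2 the log2 fold change was 0.63 ± 0.25, with an unadjusted p of 0.0335 and an adjusted p of 0.9999 by edgeR. It was 0.16 without the library labelled KO4.

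Cxcr6 (ENSMUSG00000048521.9, chromosome 9, 123635540 to 123640825, plus strand) had 83.1, 39.2, 84.8 and 103 CPM in the libraries labelled KO1 to KO4, against 54.4, 70.2, 101 and 56.2 CPM in WT1 to WT4. KO2 was again the lowest, and the groups overlapped. The means were 77.4 ± 26.9 CPM in KO and 70.4 ± 21.5 CPM in WT (SD, n = 4 each), with a log2 fold change of 0.14 ± 0.28 and an interval of -0.47 to 0.75. It was 0.36 without KO2 and -0.12 without WT4 and the library labelled KO4.

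For Cxcr6 the 2 kinds of library gave opposite estimates. Among libraries with Xist, the 3 from KO (83.1, 84.8 and 103 CPM) were all above the 2 from WT (54.4 and 56.2 CPM), with a log2 fold change of 0.70 ± 0.14. Among those without Xist, KO2 (39.2 CPM) was below WT2 and WT3 (70.2 and 101 CPM), with a log2 fold change of -1.14 ± 0.25. The difference was 1.83 ± 0.30, with an unadjusted p of 0.000153 and an adjusted p of 0.381 by edgeR with an interaction term chosen after the values were seen, so it did not pass. The side without Xist rests on 1 KO library, which was also low in Ltb, Ccr6, Lta and Ahr, so in KO the absence of Xist and this 1 library cannot be told apart.

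**Figure D3:**
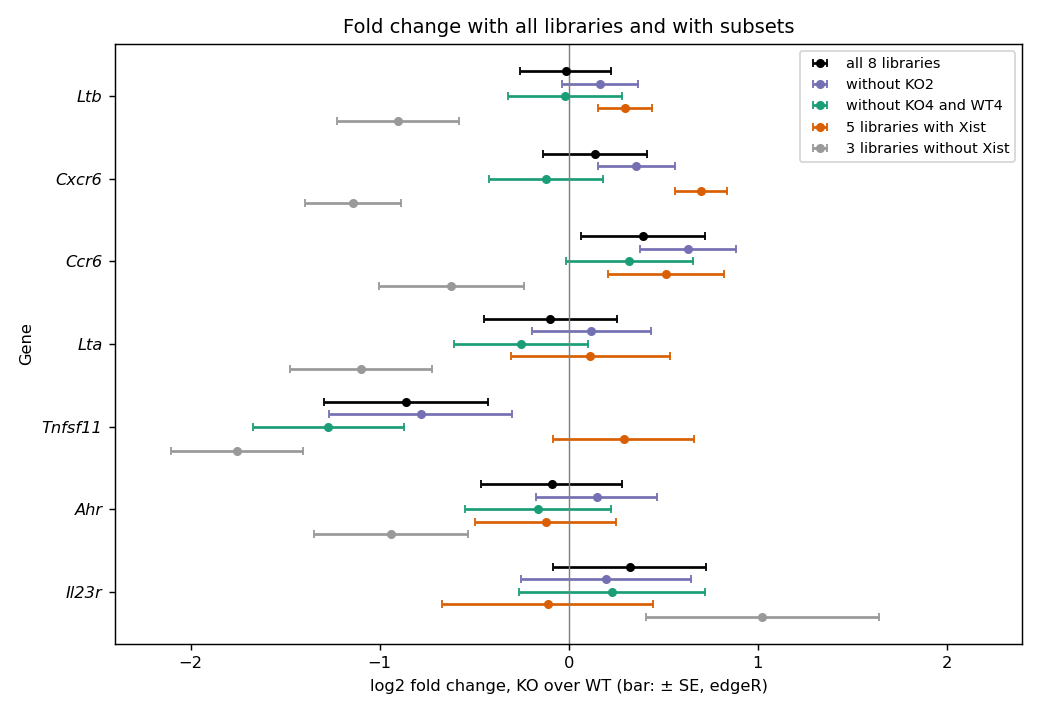
Log2 fold change of KO over WT for the 7 tested genes (points) with standard errors (bars) from edgeR, with all 8 libraries and with 4 subsets. The 3 libraries without Xist, with 1 KO library among them, give lower estimates than all 8 libraries for 6 of the 7 genes, and Il23r the higher one.

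Il23r and Il22 stand at the receiving and the sending end of the ILC3 response. Il22 was near the limit of detection, while Il23r was low but counted in every library. Il23r (ENSMUSG00000049093.10, chromosome 6, 67399916 to 67468839, minus strand) gave 0.390, 1.05, 0.799 and 1.07 CPM in the libraries labelled KO1 to KO4, against 0.899, 0.470, 0.552 and 0.742 CPM in WT1 to WT4. These values come from 14 to 71 counts. KO1 was the lowest and the library labelled KO4 the highest. Il23r averaged 0.827 ± 0.316 CPM in KO and 0.666 ± 0.193 CPM in WT (SD, n = 4 each), and the log2 fold change was 0.32 ± 0.40 with an interval of -0.57 to 1.22. In fold the interval was 0.673 to 2.32.

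Il22 (ENSMUSG00000074695.4, chromosome 10, 118040847 to 118045952, plus strand) did not pass the count filter. It had 0, 2, 6 and 12 counts in the libraries labelled KO1 to KO4, against 0, 10, 0 and 2 counts in WT1 to WT4. All 8 counts were even, and the file headers show no option to count pairs of mates as 1. Scaled, the non-zero values were 0.0617, 0.184 and 0.181 CPM in KO and 0.152 and 0.0285 CPM in WT. A count of 0 allows up to 0.0829 CPM in KO1, 0.0869 CPM in WT1 and 0.0964 CPM in WT3 (3 counts of unscaled depth, counting error only, with every count taken as independent). Where both mates of a fragment were counted, these limits are too low. The two-sided exact permutation p was 0.314, and no fold change is given at this level.

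Ahr encodes the aryl hydrocarbon receptor, a ligand-activated transcription factor that maintains ILC3 in the gut. The gene (ENSMUSG00000019256.18, chromosome 12, 35547973 to 35585037, minus strand) had 2.57, 1.604, 4.73 and 5.34 CPM in the libraries labelled KO1 to KO4, against 3.91, 3.29, 2.76 and 5.22 CPM in WT1 to WT4. The KO libraries spanned the whole range. Ahr averaged 3.56 ± 1.77 CPM in KO and 3.80 ± 1.06 CPM in WT (SD, n = 4 each), and the log2 fold change was -0.09 ± 0.37 with an interval of -0.91 to 0.73. It was -0.16 ± 0.39 without WT4 and the library labelled KO4. In each group the library numbered 4, one of the 3 deeper ones, was the highest. Ahr shares 127 exonic bases with the antisense gene Gm48236, and since the library kit does not mark strand, reads there cannot be assigned to one of them.

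The members varied between libraries more than most genes did. The coefficient of variation over 8 libraries was 27.1% for Ltb, 30.9% for Cxcr6, 34.5% for Il23r, 34.7% for Lta, 36.5% for Ccr6, 36.8% for Ahr and 61.7% for Tnfsf11, against a median of 18.9% over all genes tested. That median covers genes of every level. Counting error adds to the variation of genes with few counts, such as Il23r with 14 to 71 counts, and genes of matched level were not compared. In KO2 and in the library labelled KO4 these members deviated together. Relative to its own mean, each of the 6 members with a mean of at least 1 CPM was low in KO2, with a median of -0.84 on the log2 scale. In WT1, 5 of the 6 were below their mean, with a median of -0.32, and in the library labelled KO4 0 of the 6 were, with a median of 0.58. Such shares were not counted over all genes tested, so the pattern cannot be called particular to these members. Il23r, which had under 1 CPM on average, was above its mean in KO2, by 0.53. KO2 is also the library that stood apart in collagen and osteocalcin counts.

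**Figure D4:**
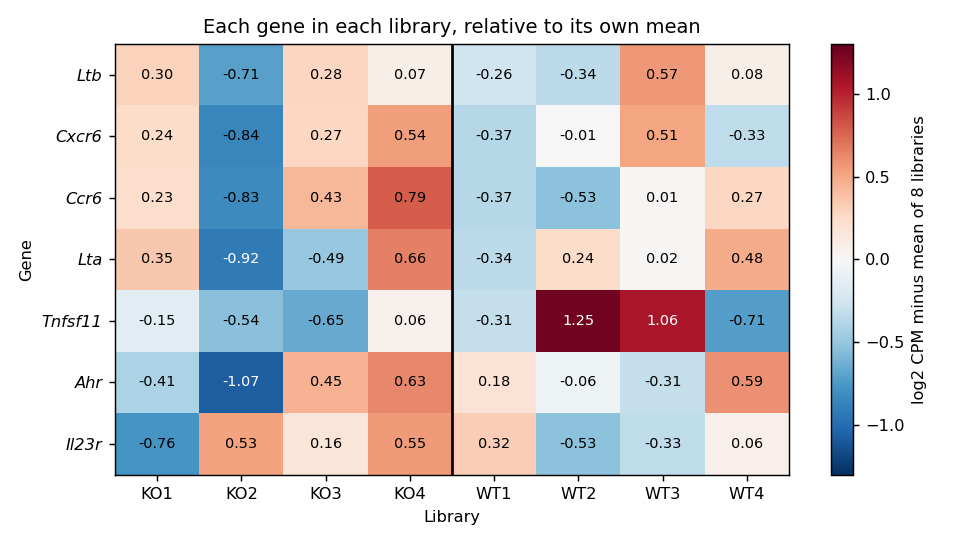
Log2 CPM of the 7 tested genes (rows) in the 8 libraries (columns, KO left of the line and WT right) minus each gene's mean over the 8 libraries, with red above and blue below that mean. KO2 is below the mean for all genes but Il23r, and Tnfsf11 is highest in WT2 and WT3.

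Over the 15 pairs of these 6 members, Ltb and Cxcr6 had the highest Pearson correlation across the 8 libraries, and Ahr and Ccr6 the highest Spearman correlation. For Ltb and Cxcr6, Pearson's r was 0.82 with an exact permutation p of 0.0127 (adjusted over the 15 pairs 0.153), and Spearman's rho was 0.64 with an exact permutation p of 0.0962 (adjusted 0.427). Without the 2 libraries farthest from the median of Ltb r was 0.52. Ccr6 correlated with Cxcr6 (r = 0.74, exact permutation p 0.0370, rho = 0.71, exact permutation p 0.0576) and with Ltb (r = 0.73, exact permutation p 0.0393, rho = 0.55, exact permutation p 0.171), each with an adjusted p of 0.153 for r and 0.427 for rho. Those r were 0.34 and 0.79 without the 2 libraries farthest from the median of Ccr6 and of Ltb. Ahr and Ccr6 had rho = 0.76 (exact permutation p 0.0368, adjusted 0.427) and r = 0.72 (exact permutation p 0.0407, adjusted 0.153), and r was 0.28 without the 2 libraries farthest from the median of Ahr. No pair passed the adjustment. Lta and Ltb, which pair as proteins, had r = 0.46 (exact permutation p 0.253, adjusted 0.429) and rho = 0.26 (exact permutation p 0.536, adjusted 0.714). Tnfsf11 went with none of the others, its highest r being 0.45 with Cxcr6 (exact permutation p 0.258, adjusted 0.429, rho = 0.43 with exact permutation p 0.299, adjusted 0.545).

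Of the sums of cell type markers, that of ILC2 was lowest in the same library as several members. The 10 ILC2 markers, all of them tested, summed to 138, 96.5, 158 and 199 CPM in the libraries labelled KO1 to KO4, against 164, 222, 271 and 174 CPM in WT1 to WT4. None passed by edgeR at an adjusted p under 0.05, and 2 of the 10 had an unadjusted p under 0.05, against 1.97% of all genes. There was 1 positive estimate and a median log2 fold change of -0.49. Il17rb was at 56.0 ± 12.8 CPM in KO and 67.0 ± 6.67 CPM in WT, and Il1rl1, which encodes the interleukin 33 receptor, at 44.7 ± 14.9 and 68.2 ± 31.6 CPM. The lowest ILC2 sum was thus in KO2, where Ltb, Ccr6 and Cxcr6 were lowest, and the highest in WT3, where Ltb was highest. Other libraries did not follow this order. KO1 had a low ILC2 sum of 138 CPM with Ltb at 178 CPM, and WT2 a high sum of 222 CPM with Ltb at 114 CPM. Ccr6 and Cxcr6 were highest in the library labelled KO4. Sums of the T cell, B cell, and NK and ILC1 lists were not lowest in KO2, where they were 278, 838 and 246 CPM. The 12 T cell markers summed to 257 to 333 CPM in KO and 214 to 331 CPM in WT, the 10 NK and ILC1 markers to 193 to 247 and 187 to 267 CPM, and the 10 B cell markers to 730 to 906 and 612 to 865 CPM. The 12 dendritic and monocyte markers summed to 5559 to 6871 CPM in KO and 4274 to 8032 CPM in WT, and the 8 erythroid markers to 24.6 to 156 and 28.7 to 382 CPM. In these lists edgeR put 0 genes past the adjusted threshold of 0.05. Before adjustment, p fell below 0.05 for 1 of 9 B cell, 2 of 12 T cell and 2 of 12 dendritic and monocyte markers tested. These were the only 5 in these lists, and the share over all genes was 1.97%. Estimates were positive for 10 of the 12 T cell, 7 of the 9 B cell and 7 of the 12 dendritic and monocyte markers. The number was 6 of 10 for NK and ILC1, 3 of 6 for tested stroma and 0 of 8 for erythroid markers. The median log2 fold change was 0.33 for T cells, 0.21 for B cells, 0.19 for stroma, 0.08 for NK cells and ILC1, 0.04 for dendritic cells and monocytes and -0.96 for erythroid cells. No marker of these lists was at 3 counts or fewer in every library, and the part of these cells in the values of the members was not tested.

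Each member with a mean of at least 1 CPM was set against 12135 other protein-coding genes by the root mean square difference of log2 CPM over the 8 libraries, each gene centred on its mean. The closest genes were Kif1b (0.11) and Hras (0.16) for Ltb, and Ccdc30 (0.14) and Tmem273 (0.17) for Cxcr6. They were Ikzf4 (0.15) and Tomm6 (0.16) for Ccr6, St8sia6 (0.22) and Csf1 (0.22) for Lta, Gpr85 (0.22) and Zfp36l1 (0.22) for Ahr, and Pde7b (0.28) and Dach2 (0.29) for Tnfsf11. The median distance to all genes ran from 0.44 for Ltb to 0.75 for Tnfsf11. No gene of the set was among the closest of another.

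No other gene of the ILC3 and LTi program passed the test of KO against WT. Of 16 transcription factors, all tested, 0 passed in either direction by edgeR at an adjusted p under 0.05. At an unadjusted p under 0.05 there was 1 of the 16, against 1.97% of all genes. Estimates were positive for 6, with a median log2 fold change of -0.09, against 0.01 over all genes. The gene with that unadjusted p was Nfil3, a factor of early innate lymphoid development, at 24.2 ± 3.48 CPM in KO and 18.4 ± 1.997 CPM in WT (SD, n = 4 each, log2 fold change 0.40 ± 0.14, adjusted p 0.999, edgeR). Gata3, needed by all innate lymphoid cells with CD127, was at 196 ± 58.6 CPM in KO and 229 ± 87.7 CPM in WT, Ets1 at 292 ± 27.3 and 279 ± 27.3 CPM, Runx1 at 194 ± 41.8 and 203 ± 17.3 CPM, and Zbtb16, which marks innate lymphoid precursors, at 17.8 ± 3.75 and 23.1 ± 7.65 CPM.

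Of 20 surface and effector genes, 17 were tested and 0 passed. By edgeR 1 of the 17 had an unadjusted p under 0.05, against 1.97% of all genes, with 8 positive estimates and a median of 0.00. The 1 gene was Ccr7, a homing receptor for lymph nodes, at 88.7 ± 11.9 CPM in KO and 70.6 ± 9.26 CPM in WT (log2 fold change 0.33 ± 0.13, adjusted p 0.999, edgeR). Ccr9, a gut homing receptor, was at 329 ± 76.2 CPM in KO and 373 ± 48.5 CPM in WT, Cd93 at 342 ± 37.1 and 343 ± 51.1 CPM, and Il18r1, a chain of the interleukin 18 receptor, at 30.0 ± 2.54 and 25.2 ± 7.49 CPM.

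In the pathways of the members, 0 genes passed by edgeR at an adjusted p under 0.05, and 0 had an unadjusted p under 0.05, against 1.97% of all genes. Of 16 interleukin 23 and 22 signalling genes 13 were tested, with a median log2 fold change of 0.03. Among them Jak1 was at 367 ± 24.5 CPM in KO and 358 ± 19.7 CPM in WT. Stat3, which carries the signal of both cytokines, was at 312 ± 31.8 and 297 ± 42.5 CPM, and Tyk2 at 80.9 ± 12.7 and 102 ± 26.0 CPM. Il12a, on the list though it encodes a chain of interleukin 12 and not of interleukin 23, was at 347 ± 76.7 and 283 ± 32.7 CPM. Il23a and Il12b, which encode the chains of interleukin 23, had at most 7 and 12 counts in any library. Of 13 genes of the aryl hydrocarbon receptor pathway 9 were tested, with a median of 0.00, and Hsp90ab1, a chaperone of the receptor, was at 1409 ± 78.3 CPM in KO and 1436 ± 169 CPM in WT. The chaperone genes Hsp90aa1 and Ptges3 were at 396 ± 70.02 and 410.5 ± 56.4, and 261 ± 49.2 and 266 ± 11.4 CPM, in KO and WT each time, and the target gene Nqo1 at 0.695 ± 0.515 and 0.848 ± 0.551 CPM.

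All 18 lymphotoxin and RANK signalling genes were tested, with a median log2 fold change of -0.02. The adaptors Traf2 and Traf6 were at 104 ± 5.32 CPM in KO and 98.8 ± 13.2 CPM in WT, and at 99.6 ± 4.85 and 94.4 ± 13.1 CPM. Birc2 was at 88.2 ± 8.02 and 88.5 ± 6.78 CPM, Traf1 at 28.4 ± 5.01 and 24.3 ± 2.55 CPM, and Tnfsf14, which encodes LIGHT, a further ligand of the lymphotoxin beta receptor, at 9.28 ± 1.16 and 12.6 ± 5.01 CPM. Of 9 ligands and partners of CCR6 and CXCR6, 8 were tested, with a median of 0.04. Ccl20 had 0 counts in every library, while Cxcl16 was at 2.96 ± 1.21 CPM in KO and 2.24 ± 0.579 CPM in WT. Adam10, a protease that sheds CXCL16, was at 185 ± 15.2 and 182 ± 11.0 CPM, and the signalling partners Gnai3, Grk2 and Arrb2 at 260.3 ± 18.2 and 250.5 ± 13.8, 206 ± 24.7 and 198 ± 15.3, and 86.3 ± 4.99 and 96.0 ± 15.6 CPM, in KO and WT each time.

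**Figure D5:**
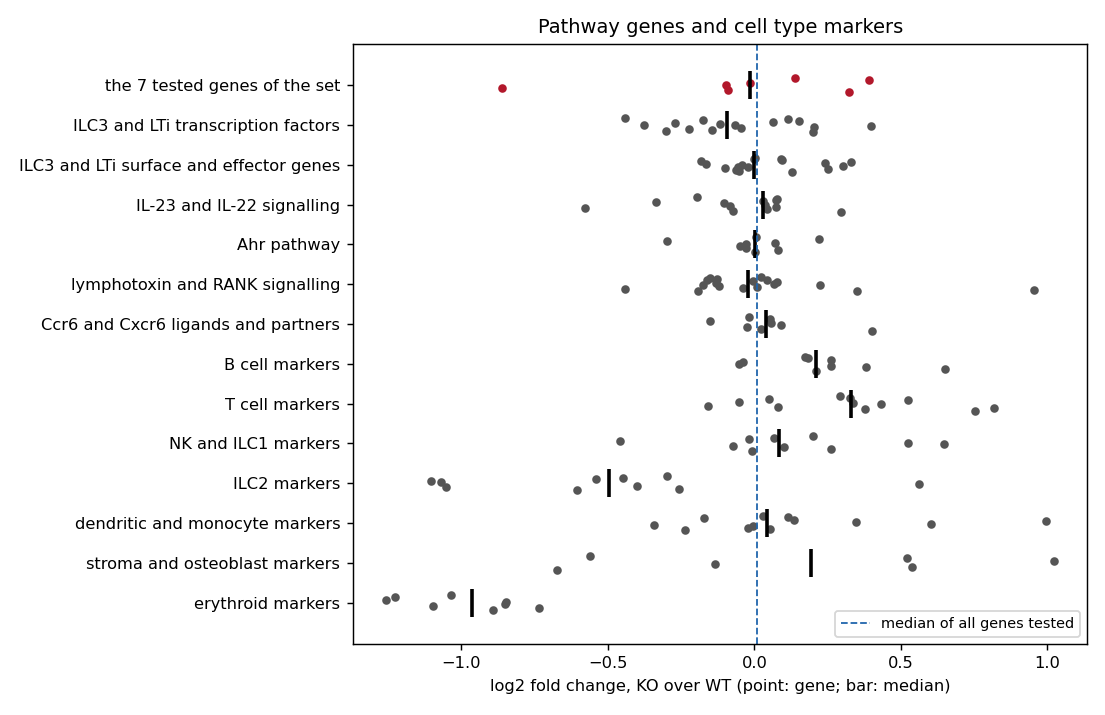
Log2 fold change of KO over WT for the 7 tested genes of the set (red) and for the tested genes of 13 other lists (grey), with a bar at each median and a dashed line at the median of all genes tested. None of these genes passed the adjusted threshold, and the medians of the 6 ILC3 pathway lists lie between -0.09 and 0.04.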

How the data were processed

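Libraries of 200 ng of total RNA were made with a low-input cDNA kit, per the labels' protocols. The authors deposited read counts for each gene as whole numbers. Per the file headers they were made by featureCounts 1.6.4 with an annotation on a GRCm39 path, whereas the submitters' processing notes name mm10. The authors also deposited RSEM expected counts (estimated fragments) and TPM per gene, and the notes name RSEM 1.3.1, STAR 2.6.0a and Picard 2.19. The headers show no strand, pair or duplicate option, and per library the total of the counts was 3.67 to 4.003 times that of the expected counts, for which the cause was not tested. Of 53647 identifiers, 52093 (97.1%) matched a symbol.

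Counts of all 8 libraries (31109744 to 73414626 each) were fitted with edgeR 4.0.16 (R 4.3.3): filterByExpr, TMM, quasi-likelihood F test with no covariate, Benjamini-Hochberg adjustment over 16352 genes, threshold 0.05. Log2 CPM used a prior count of 3. Exact permutation tests (two-sided, 70 assignments) used log2(CPM + 0.1). limma 3.58.1 and DESeq2 1.42.0 served as alternatives, as did other scalings, filters, covariates and subsets of libraries, and expected counts were rounded to whole numbers. Steps were tested on simulated data.

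The members and lists were chosen with earlier results of these data known. Named are the members, Trerf1, Il7r, the 3 genes with the highest mean CPM and the 2 with the smallest p of each pathway list, the 2 highest of each cell type list (those lists are given as sums here) and the 2 closest genes to each member; Gm and Rik symbols, receptor variable segments and ribosomal genes are left out. Tnf, Ncr1, Nrp1, Klrg1, Col1a1, Col1a2, Sparc, Bglap and the genes in the other observations are named outside that rule, after their values were seen, and some genes that the rule or the lists hold are not reported here. Intervals and floors cover counting error or the spread between libraries only.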

Additional observations from a re-analysis of the deposited data

Results flagged for a closer look

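In 3 of the 154 groups of 4 libraries examined, 1 library lay far from the other 3, where chance gives about 1 in 20. Trerf1 was at 22.1 CPM in the library labelled KO4, against 13.4 CPM in the next highest KO library. Il12a, which encodes a chain of interleukin 12, was at 331 CPM in WT3, against 271 CPM in the next highest WT library. Tmem273, one of the genes closest to Cxcr6, was at 4.505 CPM in KO2, against 9.07 CPM in the next lowest KO library. No difference in the KO effect between libraries with and without Xist, or between deeper and shallower libraries, passed the adjusted threshold for a member (edgeR, interaction term).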

How the results depend on the processing

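No alternative put a member past the adjusted threshold (159 fits of the 7 members, smallest adjusted p 0.150, for Tnfsf11 in the 3 libraries without Xist), and 23 of these fits turned the direction of an estimate. Ltb turned to 0.037 with limma-voom, 0.15 in the 3 deeper libraries and 0.30 in the 5 with Xist. Ahr turned to 0.016 with depth class as covariate and 0.29 in the deeper libraries, and Lta to 0.044, 0.25 and, with Xist, 0.11. Cxcr6 turned to -0.12 without WT4 and the library labelled KO4, -0.17 in the 5 shallower libraries and -1.14 without Xist, and Ccr6 to -0.62 without Xist. Among libraries with Xist, Il23r turned to -0.11 and Tnfsf11 to 0.29. The cause was not tested. Tnfsf11 had an unadjusted p of 0.0299 with DESeq2 and 0.0354 with no filter on low counts (edgeR), and its adjusted p ran from 0.150 upwards over all alternatives. Leaving out 1 library gave -0.14 to 0.20 for Ltb, -0.36 to 0.15 for Ahr, -0.39 to 0.12 for Lta, -0.027 to 0.36 for Cxcr6, 0.16 to 0.63 for Ccr6, 0.17 to 0.55 for Il23r and -1.12 to -0.53 for Tnfsf11. Over all genes, 12 were called without WT4 and the library labelled KO4, 2 in the 3 deeper libraries and 4 in the 3 without Xist, in place of 0. With the replicate number as a block, 0 genes were called, 634 in place of 322 had an unadjusted p under 0.05, and the log2 fold change was -0.65 for Tnfsf11, 0.32 for Ccr6 and -0.02 for Ltb. Deviations of same-numbered libraries correlated at 0.36, 0.31, -0.03 and 0.12 for numbers 1 to 4, and 2 of the 4 KO libraries correlated best with their own number. Il23r fell under the filter with expected counts and with a mean CPM of at least 1. The exact permutation p of every member stayed above 0.05 with unscaled CPM and with TPM. Il22 had 0 to 12 and Il23r 14 to 71 counts in a library, and Il22 was too low for a fold change.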

Other observations

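Other effector cytokine genes of ILC3 also had few counts. Il17a had at most 4 counts, and Csf2, which encodes GM-CSF, had at most 14 counts in any library. Il17f, an interleukin 17 family cytokine, had 42 counts in the library labelled KO4, against 4 to 6 counts in the other 7 libraries. The natural cytotoxicity receptor gene Ncr1 was at 4.69, 1.85, 4.24 and 4.68 CPM in the libraries labelled KO1 to KO4, against 3.04, 4.76, 5.15 and 3.64 CPM in WT1 to WT4, and was thus lowest in KO2 as well. Klrb1b had 2.76, 0.802, 2.83 and 3.14 CPM in the libraries labelled KO1 to KO4, against 1.51, 3.35, 3.43 and 1.43 CPM in WT1 to WT4, again with KO2 lowest.

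Cd4, which marks a part of mouse LTi cells and also T cells and plasmacytoid dendritic cells, had a wider range than any member but Il22. It had 281, 61.3, 92.8 and 113 CPM in the libraries labelled KO1 to KO4, against 193, 67.8, 37.9 and 145 CPM in WT1 to WT4. Its log2 fold change was 0.30 ± 0.53. The receptor genes on the responding side were measured at low levels: Ltbr at 4.43 to 7.75 CPM in KO and 5.40 to 9.60 CPM in WT, and Tnfrsf11a, which encodes RANK, at 0.984 to 1.84 and 0.613 to 1.499 CPM. Ahrr, a target of the aryl hydrocarbon receptor, had 2, 6, 4 and 9 counts in the libraries labelled KO1 to KO4, against 4, 21, 17 and 0 counts in WT1 to WT4. These genes were named after their values were seen, and none was tested beyond the fit over all genes.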
